A study of Mus musculus with 3 samples.

Results

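Microglia live in a niche of signals from the cells around them, and the 10 genes described here encode the ligands and receptors of 4 such signalling systems. They were chosen by name. The growth factors Csf1 and Il34 share the receptor Csf1r, the cytokine Tgfb1 acts through Tgfbr1 and Tgfbr2, the chemokine Cx3cl1 binds Cx3cr1, and the membrane protein Cd200 binds Cd200r1, which gives 5 ligands and 5 receptors among the 32285 genes of the files. For each of them the transcripts, counted by their unique molecular identifiers (UMIs), were summed over the cells of a class in a library and scaled to 1000000 UMIs of that sum (CPM).

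CSF1R is a receptor tyrosine kinase on which microglia depend for survival, and CSF1 and IL34 are its alternative ligands. TGF-beta is released in a latent form and signals through a pair of receptor kinases to SMAD transcription factors, and this signal maintains the gene program of homeostatic microglia. CX3CL1 is a chemokine that is anchored in the membrane until proteases shed it, and CD200 is a surface protein that restrains myeloid cells through its receptor.

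Cells came from the brains of WT C57BL6J mice in 3 groups: naive controls, mice at 24 h after a transient ischemic attack (TIA) and mice at 3 d after it. The labels give neither sex nor age, and by the account of the study the mice were young adult males. TIA was a 5 min occlusion of the middle cerebral artery with a filament, and the cells of the TIA groups came from the hemisphere on the side of the occlusion. The treatment labels call both time points post stroke, and the treatment protocol names the occlusion of 5 min TIA. White matter and meninges had been taken off, the tissue was dissociated with papain, and propidium iodide-negative cells were sorted and sequenced with a 10x Genomics 3′ kit. Cells of 3 mice were pooled for each group and gave 1 library, so a difference between groups cannot be told apart from a difference between libraries and no p-value is given. The control library is shared by both comparisons. The labels call the controls naive, while the study uses both naive and sham for them, so whether the ratios include an effect of anesthesia and surgery cannot be told from the files.

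The files held 4804 control cells (37987228 UMIs), 1619 cells of 24 h (12919691 UMIs) and 5505 of 3 d (48636436 UMIs). Of these, 4018, 1225 and 4781 cells had at least 500 genes and at most 7% mitochondrial UMIs, with medians of 7750, 8123 and 7868 UMIs per cell. The smallest library was therefore that of 24 h. Few cell barcodes were shared between libraries among the kept cells, with 2 between control and 24 h, 7 between control and 3 d and 2 between 24 h and 3 d. Intervals are exact at 95% and cover counting error only, never the difference between mice.

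Clusters were named from fixed marker genes, with the 10 members kept out of the clustering, and every class name below stands for cells that are like the named type. The classes compared were microglia (1019 control cells, 282 at 24 h and 1269 at 3 d), astrocytes (894, 240 and 1428), endothelial cells (313, 236 and 624), pericytes (160, 182 and 327), oligodendrocytes (232, 72 and 249) and neurons (796, 113 and 374). Microglia were made of a large cluster led by homeostatic genes such as P2ry12 and Tmem119 and a smaller one led by Cxcl10, Ccl12, Tnf and Ccl2, which held 119 of the control microglia, 66 of those at 24 h and 281 at 3 d. In both clusters all 8 microglial markers met the naming rule. The neurons were led by Adarb2, Grik3 and Nxph1. Few mature neurons are known to outlive such a dissociation, and the maturity of these cells was not tested.

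There were 3 clusters without a name, with 426 control cells, 64 at 24 h and 321 at 3 d. A cluster of 187 cells combined all 8 markers of microglia with all 8 of border-associated macrophages, had 4.26 times the median depth and was led by S100a8, F13a1 and Pf4, and another of 472 cells was shallow, with 0.263 of the median depth. These unnamed cells held 17.9% of the Csf1r UMIs of the control library (95% interval 17.4 to 18.3), 12.3% at 24 h (11.6 to 13.1) and 29.2% at 3 d (28.8 to 29.7), so the microglial values below leave out part of the receptor RNA of each library.

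In the control library, 6 of the 10 members were highest in microglia among the 6 compared classes. These were Tgfb1 and all 5 receptors, and the other ligands were highest in endothelial cells (Cx3cl1 and Cd200), pericytes (Il34) or oligodendrocytes (Csf1). After TIA the highest class stayed that of the controls for all members but Csf1 at 24 h. Levels of different genes are not compared with each other, since the counts are not scaled to transcript length.

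**Figure D1:**
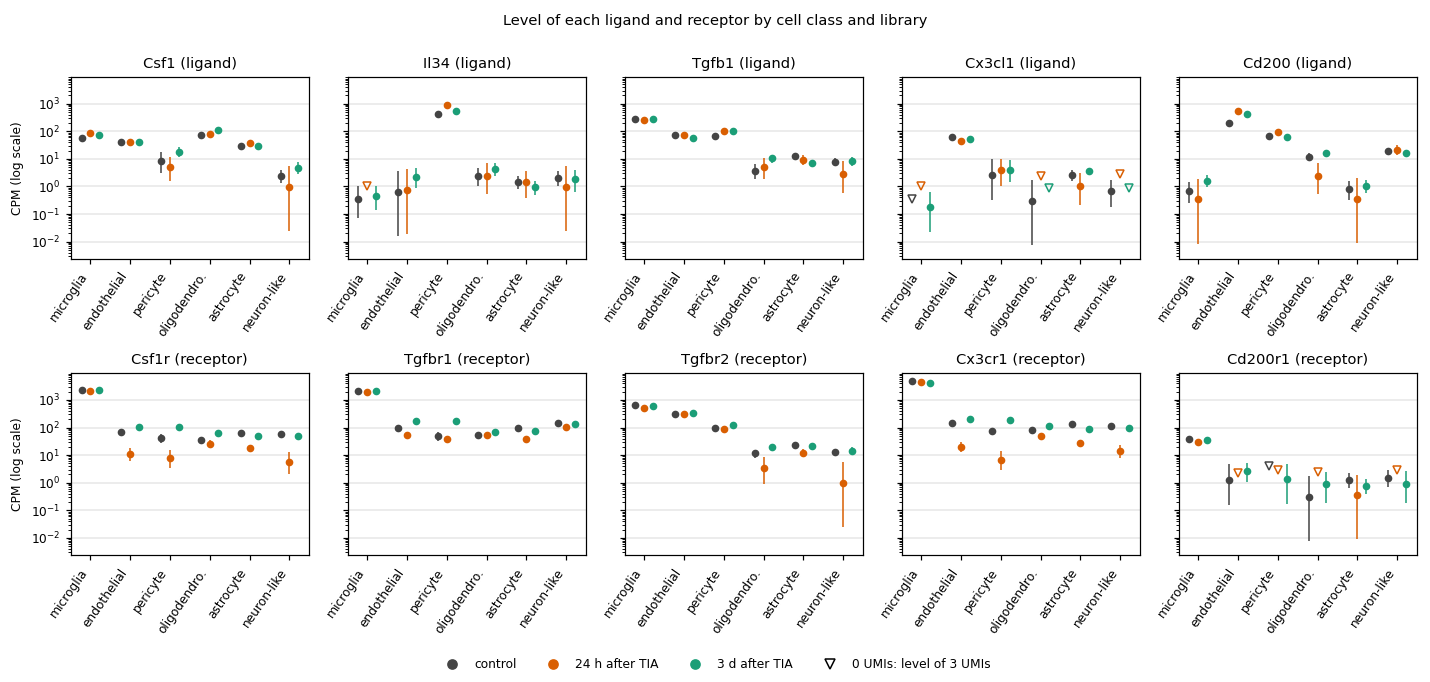
Level of each ligand and receptor by cell class, in CPM on a log axis, with 1 point for each of the 3 libraries and exact Poisson 95% intervals of counting error. Triangles mark 0 UMIs at the level of 3 UMIs, and Il34 stands out in pericytes, Cx3cl1 and Cd200 in endothelial cells and the receptors in microglia, while Csf1 is spread over oligodendrocytes, microglia, endothelial cells and astrocytes.

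Csf1, the secreted or membrane-bound growth factor of the mononuclear phagocyte lineage, came from several classes. Its level in oligodendrocytes was 75.6 CPM in the control library (66.5 to 85.6), 81.6 CPM at 24 h (66.2 to 99.4) and 109 CPM at 3 d (98.3 to 121). In microglia it was 59.0 CPM (54.0 to 64.4), 89.0 CPM (78.6 to 100.4) and 76.3 CPM (71.3 to 81.6). Oligodendrocytes were thus 1.28-fold above microglia in the control library with intervals that did not meet, and at 24 h the order was turned with intervals that overlapped. Endothelial cells followed with 40.2, 40.1 and 40.3 CPM and astrocytes with 30.3, 37.1 and 30.3 CPM, and pericytes and neurons were at 18.1 CPM or below. Since microglia outnumbered oligodendrocytes, they held 41.9% of the Csf1 UMIs of all kept cells in the control library (39.1 to 44.8), against 20.4% in oligodendrocytes (18.2 to 22.8) and 22.1% in astrocytes (19.8 to 24.5). The share of oligodendrocytes with a Csf1 UMI was 17.3%, 4.23% (3 of 71 cells) and 16.5% at 2000 UMIs per cell and 59.1%, 61.1% and 64.7% at full depth.

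Csf1 was the member that rose in microglia, by a log2 ratio of 0.59 against control at 24 h (0.37 to 0.81), which is 1.51-fold and so just past the limit of 1.5-fold with at least 50 UMIs over both sums that is used here as a call. At 3 d the log2 ratio was 0.37 (0.21 to 0.53) and did not pass. The 5 microglia with most Csf1 UMIs held 44.9% of them at 24 h (5 of 282 cells), 26.0% at 3 d (5 of 1269) and 18.9% in the control library (5 of 1019). Without these 5 cells of each library the log2 ratio at 24 h was 0.07. This removal takes a larger part of the smaller 24 h class, and how far that alone lowered the ratio was not tested. With the mean of per-cell CPM the ratio was 0.24, and with scaling by the median ratio over genes it was 0.54. The large homeostatic cluster had 53.9, 44.4 and 54.6 CPM of Csf1 in the control, 24 h and 3 d libraries, and the cluster led by Cxcl10 and Tnf had 96.7, 198 and 145 CPM, with log2 ratios of 1.03 at 24 h (0.67 to 1.40) and 0.59 at 3 d (0.27 to 0.92). The share of microglia with a Csf1 UMI, at 2000 UMIs per cell, was 7.35% in the control library (5.81 to 9.14), 8.24% at 24 h (5.30 to 12.1) and 6.26% at 3 d (4.99 to 7.75), after 12, 3 and 8 shallower cells had been left out. At full depth it was 16.9%, 18.4% and 18.2%, with median depths of 7883, 9466 and 7839 UMIs. Pericytes, where the gene was near its lowest, had shares of 0.641%, 1.14% and 2.30% at 2000 UMIs, with median depths of 4320, 5275 and 3906 UMIs.

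In oligodendrocytes the log2 ratio of Csf1 was 0.11 at 24 h (−0.24 to 0.45) and 0.53 at 3 d (0.29 to 0.76), which is 1.44-fold and short of the limit. Its ratios in endothelial cells were 0.00 at both times, with intervals of −0.56 to 0.55 at 24 h and −0.45 to 0.47 at 3 d. In the unnamed cells with macrophage markers Csf1 was at 41.5 CPM in the control library (32.2 to 52.7), 64.2 CPM at 24 h (43.0 to 92.1) and 88.8 CPM at 3 d (80.7 to 97.4).

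Il34, the other ligand of CSF1R, was nearly restricted to pericytes among the compared classes. Its level there was 407 CPM in the control library (363 to 456), 900 CPM at 24 h (842 to 960) and 550 CPM at 3 d (513 to 589), and no other compared class was above 4.34 CPM in any library. Pericytes held 76.9% of the Il34 UMIs of all kept control cells (72.4 to 81.0), 97.3% at 24 h (96.1 to 98.3) and 85.5% at 3 d (83.1 to 87.7). The neuron class had 12, 1 and 6 Il34 UMIs (control, 24 h, 3 d). These sorted neurons are not taken to stand for those of the intact brain, which was not tested. The Il34 shares therefore describe the sorted cells only. Among classes too small to be compared, fibroblasts had 630 CPM in the control library (458 to 846), 772 CPM at 24 h (385 to 1381) and 666 CPM at 3 d (516 to 846), from 9, 2 and 13 cells.

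Il34 in pericytes rose at 24 h, with a log2 ratio of 1.14 (0.95 to 1.34), or 2.21-fold. At 3 d the log2 ratio was 0.43 (0.24 to 0.63) and did not pass the limit, and the interval of the 3 d level lay between those of the control and 24 h libraries without meeting them. The share of pericytes with an Il34 UMI, at 2000 UMIs per cell, was 59.6% in the control library (51.5 to 67.4), 73.1% at 24 h (65.9 to 79.6) and 59.7% at 3 d (53.9 to 65.2), with 4, 7 and 22 shallower cells left out, and 81.2%, 94.5% and 81.0% at full depth. Microglia, taken as the class that should lack the gene, had shares of 0.0993%, 0% (0 of 279 cells, up to 1.31%) and 0% (0 of 1261 cells, up to 0.292%) at 2000 UMIs, and 0.294%, 0% and 0.394% at full depth.

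Markers of neighbouring mural and stromal cells were looked up beside this rise. In the pericyte class, 3 of 7 fibroblast markers had UMIs in control and 24 h cells and 5 of 7 at 3 d, with summed levels of 264, 226 and 235 CPM and Col1a2 as the most abundant at 164, 147 and 138 CPM. The defining markers Dpt and Slc47a1 were at 0 in all libraries, and Lum and Col1a1 in the control and 24 h libraries. Of 6 smooth muscle markers, 5 had UMIs in control and 24 h cells, where Cnn1 was at 0, and all 6 at 3 d. Their sums were 744, 658 and 350 CPM, with Tagln at 257 CPM as the most abundant in the control library and Myh11 at 204 and 105 CPM at 24 h and 3 d. At 24 h the fibroblast sum thus had a log2 ratio of −0.22 (−0.51 to 0.06) and the smooth muscle sum one of −0.18 (−0.34 to −0.01), where Il34 was at 1.14.

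Tgfb1, the ligand of the TGF-beta receptors, was itself highest in microglia, with 289 CPM in the control library (278 to 301), 251 CPM at 24 h (233 to 270) and 281 CPM at 3 d (271 to 291). Its log2 ratios there were −0.20 at 24 h (−0.32 to −0.09) and −0.04 at 3 d (−0.12 to 0.03), and neither passed the limit. Endothelial cells came next in the control library with 71.2 CPM, and had 73.5 CPM at 24 h and 57.5 CPM at 3 d. In pericytes Tgfb1 rose, from 65.9 CPM in the control library (48.7 to 87.1) to 103 CPM at 24 h (84.6 to 125) and 101 CPM at 3 d (85.2 to 118), with log2 ratios of 0.65 (0.15 to 1.17) and 0.61 (0.14 to 1.11). These folds of 1.57 and 1.53 were close to the limit and came from 49, 105 and 150 UMIs. The share of pericytes with a Tgfb1 UMI was 8.97%, 16.6% and 16.7% at 2000 UMIs per cell and 23.1%, 39.0% and 31.8% at full depth. In oligodendrocytes, with few Tgfb1 UMIs and median depths of 13417, 16150 and 12899 UMIs, it was 0% (0 of 231 cells, up to 1.58%), 1.41% and 2.81% at 2000 UMIs and 2.59%, 4.17% and 6.43% at full depth. In astrocytes Tgfb1 was at 12.6, 9.46 and 7.0 CPM and fell at 3 d with a log2 ratio of −0.85 (−1.25 to −0.44), which was −0.27 without called doublets and −0.35 without regression and passed in neither.

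Cx3cl1 was highest in endothelial cells, with 62.8 CPM in the control library (50.9 to 76.6), 43.2 CPM at 24 h (32.7 to 55.9) and 51.1 CPM at 3 d (43.5 to 59.7). The next class was that of pericytes, with 2.69, 3.94 and 4.03 CPM from 6 UMIs or fewer, and astrocytes had 2.58, 1.05 and 3.53 CPM from 23, 3 and 50 UMIs. Of the Cx3cl1 UMIs of all kept cells, endothelial cells held 72.9%, 74.0% and 70.8% and astrocytes 17.3%, 3.90% and 22.1%. Its log2 ratios in endothelial cells were −0.54 at 24 h (−1.04 to −0.05) and −0.30 at 3 d (−0.67 to 0.08), which did not pass, though the value at 24 h passed under 4 other settings, such as −0.65 without regression. The neurons had 4 UMIs of Cx3cl1 in the control library and 0 at both times after TIA, where 3 UMIs would be 2.93 CPM at 24 h and 0.896 CPM at 3 d. Neurons of the intact brain are known as a source of this chemokine. These sorted cells are not taken to stand for them, which was not tested. The share of endothelial cells with a UMI was 6.34%, 8.48% and 10.7% at 2000 UMIs per cell and 19.2%, 19.5% and 19.7% at full depth, an order that differed from that of the CPM and is not read as one. Microglia, which should lack the gene, had 0 of 1007 cells in the control library (up to 0.366%), 0 of 279 cells at 24 h (up to 1.31%) and 0.0793% at 3 d.

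Cd200 was highest in endothelial cells in all 3 libraries, with 209 CPM in the control library (186 to 233), 544 CPM at 24 h (505 to 585) and 419 CPM at 3 d (396 to 442). It rose at both times, with log2 ratios of 1.38 at 24 h (1.19 to 1.58), or 2.61-fold, and 1.01 at 3 d (0.83 to 1.19), or 2.01-fold. The 3 intervals of the level did not meet each other. Pericytes had 68.6, 97.6 and 64.4 CPM, with log2 ratios of 0.51 (0.01 to 1.03) and −0.09 (−0.59 to 0.43). The neurons had 19.8, 21.5 and 16.1 CPM, with ratios of 0.12 (−0.61 to 0.78) and −0.29 (−0.79 to 0.18), so no change was detectable there at this depth.

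The share of endothelial cells with a Cd200 UMI, at 2000 UMIs per cell, was 35.6% in the control library (30.0 to 41.4), 54.9% at 24 h (48.1 to 61.5) and 51.8% at 3 d (47.7 to 55.9), with 29, 12 and 43 shallower cells left out. At full depth it was 54.3%, 80.1% and 72.9%, with median depths of 4626, 5645 and 4330 UMIs. Microglia, as the class without the gene, had shares of 0.0993%, 0% (0 of 279 cells) and 0.238% at 2000 UMIs. The 5 endothelial cells with most Cd200 UMIs held 9.01% of them in controls, 11.4% at 24 h and 5.50% at 3 d. Endothelial cells held 55.2% of the Cd200 UMIs of all kept control cells (51.1 to 59.3), 82.2% at 24 h (79.4 to 84.6) and 81.8% at 3 d (79.8 to 83.7).

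All 5 receptors were highest in microglia in each library. Csf1r was at 2346 CPM in the control library (2314 to 2378), 2202 CPM at 24 h (2149 to 2256) and 2221 CPM at 3 d (2194 to 2249), with log2 ratios of −0.09 (−0.13 to −0.05) and −0.08 (−0.11 to −0.05). The class below microglia was 33.5-fold lower in the control library, 85.4-fold lower at 24 h and 20.8-fold lower at 3 d. Within microglia the large cluster had 2365, 2417 and 2274 CPM and the cluster led by Cxcl10 and Tnf 2209, 1680 and 2052 CPM.

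Tgfbr1, the type I receptor kinase that phosphorylates SMAD proteins, was at 2150 CPM in control microglia (2120 to 2181), 1884 CPM at 24 h (1834 to 1934) and 2156 CPM at 3 d (2129 to 2184). Its log2 ratios were −0.19 at 24 h (−0.23 to −0.15) and 0.00 at 3 d (−0.02 to 0.03). In the cluster led by Cxcl10 and Tnf it was at 1653 CPM in the control library, 1039 CPM at 24 h and 1648 CPM at 3 d, and fell at 24 h with a log2 ratio of −0.67 (−0.79 to −0.55), while the large cluster was at 2218, 2231 and 2317 CPM with 0.01 at 24 h (−0.04 to 0.05). Tgfbr2, the type II kinase that binds the ligand, was at 635 CPM in control microglia (619 to 652), 524 CPM at 24 h (498 to 551) and 620 CPM at 3 d (606 to 635), with log2 ratios of −0.28 (−0.36 to −0.20) and −0.04 (−0.09 to 0.02). Neither receptor passed the limit in microglia as a whole.

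Cx3cr1, the receptor of fractalkine, was at 4778 CPM in control microglia (4732 to 4824), 4474 CPM at 24 h (4398 to 4551) and 4195 CPM at 3 d (4157 to 4233), with log2 ratios of −0.09 (−0.12 to −0.07) and −0.19 (−0.21 to −0.17). The 3 intervals of the level did not meet each other, and the values went down in the order control, 24 h and 3 d by less than the limit. Cd200r1, the inhibitory receptor of CD200, was at 37.6 CPM (33.6 to 41.9), 28.8 CPM (23.0 to 35.6) and 35.2 CPM (31.9 to 38.9), with log2 ratios of −0.39 (−0.75 to −0.04) and −0.09 (−0.31 to 0.12). Its count came from 326, 85 and 397 UMIs, and it is uncertain because Cd200r2, Cd200r3 and Cd200r4 are similar in sequence. In control microglia Cd200r4 had 17 UMIs and Cd200r3 had 3.

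Nearly every microglial cell had a UMI of Cx3cr1, Csf1r and Tgfbr1. At 2000 UMIs per cell the shares for Csf1r were 98.6% in the control library (97.7 to 99.2), 97.5% at 24 h (94.9 to 99.0) and 98.3% at 3 d (97.5 to 99.0), and those for Cx3cr1 were 99.5%, 99.6% and 99.8%. Tgfbr1 was found in 95.3%, 92.8% and 97.0% of them, Tgfbr2 in 67.2%, 65.2% and 67.3% and Cd200r1 in 6.75%, 4.66% and 5.95%. At full depth the shares of Cd200r1 were 22.4%, 21.3% and 22.2%. Oligodendrocytes, taken as the class that should lack the receptors, had shares at 2000 UMIs of 2.16%, 5.63% and 3.61% for Csf1r, 5.19%, 4.23% and 8.43% for Cx3cr1, 7.79%, 8.45% and 8.84% for Tgfbr1 and 0% (0 of 231 cells, up to 1.58%), 0% (0 of 71 cells, up to 5.06%) and 0.402% for Cd200r1. The share of microglia with Cd200r1 at 24 h lay below the limit that 0 of 71 cells allows.

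In microglia, 1 of 7 members with enough UMIs passed the limit at 24 h (Csf1, up), against 12.2% of the 10733 genes measured in the same way, and 0 of 7 passed at 3 d, against 6.22% of 11722 genes. With 7 members, 1 call is close to the share of all genes. In microglia as a whole the receptor side of the niche therefore had no member past 1.5-fold. Within the cluster led by Cxcl10 and Tnf, Tgfbr1 fell past it at 24 h (−0.67), where 635 of 5937 genes measured fell. In the same cluster Csf1 rose past it at 24 h (1.03) and at 3 d (0.59). The ligands that passed upward in other classes were Il34 and Tgfb1 in pericytes and Cd200 in endothelial cells.

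In the other compared classes, 15 of 29 member values passed at 24 h (3 up and 12 down) and 10 of 34 at 3 d (8 up and 2 down). By class at 24 h these were 4 of 6 in astrocytes (20.5% of all genes measured), 4 of 8 in endothelial cells (15.8%), 3 of 5 in neurons (17.0%), 1 of 4 in oligodendrocytes (21.9%) and 3 of 6 in pericytes (14.4%). At 3 d they were 2 of 7 in astrocytes (6.55%), 2 of 8 in endothelial cells (15.9%), 0 of 6 in neurons (6.53%), 2 of 6 in oligodendrocytes (12.1%) and 4 of 7 in pericytes (17.1%). Apart from Il34, Cd200 and Tgfb1, every one of these calls was for a receptor whose level in the class was low beside microglia.

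**Figure D2:**
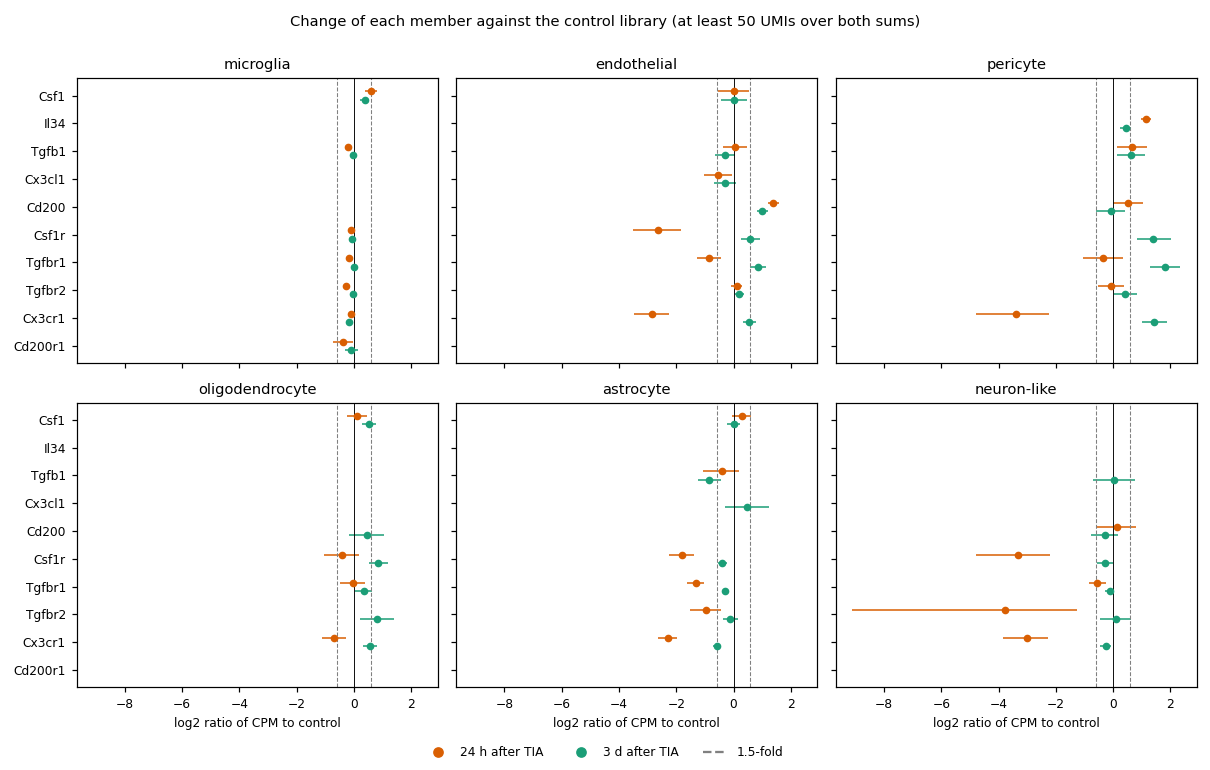
Log2 ratio of CPM against the control library for each member in each class, where both sums together held at least 50 UMIs, with exact conditional binomial 95% intervals of counting error and the limit of 1.5-fold. Il34 in pericytes and Cd200 in endothelial cells lie right of the limit at 24 h, the microglial receptors lie close to 0, and Csf1r and Cx3cr1 lie far left at 24 h in endothelial cells, astrocytes and neurons.

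Receptor values outside microglia are given here beside those of microglial markers. As a percent of the level in microglia of the same library, the median of 8 microglial markers in endothelial cells was 2.95% in controls, 0.237% at 24 h and 4.44% at 3 d, and Csf1r was at 2.98%, 0.516% and 4.72% and Cx3cr1 at 2.96%, 0.440% and 4.90%. In pericytes the marker median was 2.17%, 0.692% and 5.29%, with Csf1r at 1.72%, 0.358% and 4.80% and Cx3cr1 at 1.52%, 0.154% and 4.62%. Over 15 pairs of class and library, Csf1r and Cx3cr1 each lay within the range of the 8 markers in 14 and above it in 0. The library of 24 h was low in this respect in endothelial cells, pericytes, astrocytes (2.88%, 1.00% and 2.10%) and neurons (2.91%, 0.360% and 2.65%), but not in oligodendrocytes (1.46%, 1.87% and 2.68%).

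The summed level of the 8 markers was 716, 333 and 868 CPM in endothelial cells, with Olfml3 at 0 at 24 h, and 494, 300 and 903 CPM in pericytes with all 8 present. It was 623, 290 and 445 CPM in astrocytes, 557, 143 and 418 CPM in neurons, with Fcrls at 0 at 24 h, and 335, 350 and 449 CPM in oligodendrocytes. Its log2 ratios at 24 h were −1.10 in endothelial cells (−1.27 to −0.94), −0.72 in pericytes (−0.94 to −0.50), −1.10 in astrocytes (−1.21 to −1.0), −1.96 in neurons (−2.21 to −1.72) and 0.06 in oligodendrocytes (−0.10 to 0.23). At 3 d they were 0.28, 0.87, −0.49, −0.41 and 0.42 in the same order.

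Beside these stand the ratios of the receptors. Csf1r fell at 24 h in endothelial cells (log2 ratio −2.62), astrocytes (−1.80) and neurons (−3.33), and Cx3cr1 fell in endothelial cells (−2.84), pericytes (−3.40), astrocytes (−2.30), neurons (−3.01) and oligodendrocytes (−0.69). Tgfbr1 fell in astrocytes (−1.32) and endothelial cells (−0.85), and Tgfbr2 fell in astrocytes (−0.96) and neurons (−3.79, from 79 UMIs to 1). At 3 d Csf1r rose in pericytes (1.40) and oligodendrocytes (0.85), Cx3cr1 rose in pericytes (1.42) and fell in astrocytes (−0.59), Tgfbr1 rose in pericytes (1.80) and endothelial cells (0.84) and Tgfbr2 rose in oligodendrocytes (0.79). Many of these UMIs lay in few cells, as the 5 top cells held 65.7% of the Cx3cr1 UMIs of pericytes at 3 d and 96.6% of those of oligodendrocytes at 24 h. With called doublets left out, the rises at 3 d turned to −0.50 for Csf1r and −0.49 for Cx3cr1 in pericytes and −0.06 for Csf1r in oligodendrocytes, and the falls in astrocytes turned to 0.04 for Tgfbr2 at 24 h and 0.14 for Cx3cr1 at 3 d. For Tgfbr1 the falls at 24 h were −0.37 in astrocytes and −0.28 in endothelial cells without doublets, and the rises at 3 d were 0.41 in pericytes and 0.31 in endothelial cells, and for Tgfbr2 the rise in oligodendrocytes was 0.43, so that none of these 5 passed. The fall of Tgfbr2 in neurons was then −1.99 and had too few UMIs to be called, while the falls of Csf1r and Cx3cr1 at 24 h all still passed. In neurons they were then smaller, at −1.87 for Csf1r and −1.57 for Cx3cr1. With the mean of per-cell CPM, the falls at 24 h were −0.47 for Csf1r in astrocytes and −0.04 for Cx3cr1 in oligodendrocytes, and neither passed. The part of microglial RNA in these ratios was not tested.

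Tgfb1 and Tgfbr2 were different in this respect, since both lay above the range of the microglial markers in endothelial cells and pericytes in all 3 libraries. Tgfbr2 in endothelial cells was at 299 CPM in the control library (272 to 327), 322 CPM at 24 h (292 to 354) and 343 CPM at 3 d (323 to 364), which is 47.0%, 61.4% and 55.3% of its level in microglia. Its log2 ratios there were 0.11 (−0.09 to 0.30) and 0.20 (0.04 to 0.36), neither past the limit, and 43.3%, 41.5% and 45.1% of endothelial cells had a UMI at 2000 UMIs per cell (68.1%, 72.0% and 71.3% at full depth), against 0.433%, 0% (0 of 71 cells) and 4.02% of oligodendrocytes. In pericytes Tgfbr2 was at 96.8, 91.6 and 129 CPM, or 15.2%, 17.5% and 20.8% of microglia. Tgfb1 stood at 24.6%, 29.3% and 20.5% of microglia in endothelial cells and at 22.8%, 41.2% and 35.8% in pericytes. Tgfbr1, the partner kinase, was above the marker range only in endothelial cells at 3 d, where it was at 7.97% of microglia. It was at 149, 101 and 136 CPM in neurons, or 6.91%, 5.39% and 6.32% of the microglial level. These values lay inside the range of the markers, whose highest was Sall1, but above the marker medians of 2.91%, 0.360% and 2.65%. In neurons of the 24 h library Csf1r was at 0.266% and Cx3cr1 at 0.327%, both below the median. The part of microglial RNA in the Tgfbr1 of neurons was not tested.

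**Figure D3:**
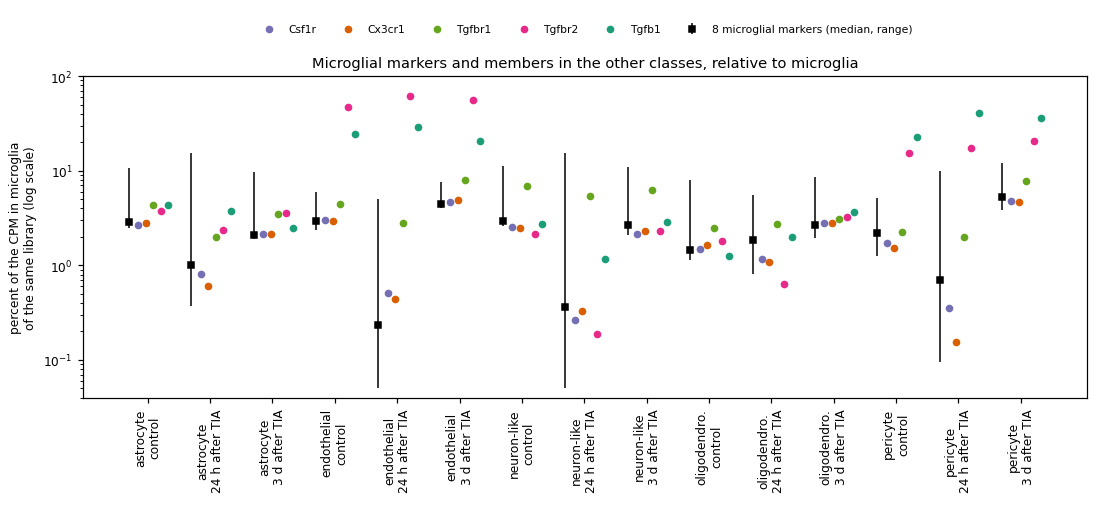
Level in 5 classes as a percent of the CPM in microglia of the same library, on a log axis, for 5 of the members highest in microglia (coloured points) and for 8 microglial markers (black squares at the median, lines from the lowest to the highest marker, with lower ends at 0 drawn near the foot of the axis). Csf1r and Cx3cr1 follow the markers, and Tgfb1 and Tgfbr2 lie above them in endothelial cells and pericytes.

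The other genes of these 4 pathways were described by lists written for this purpose. The CSF1R list held 16 adaptors, signalling proteins and target transcription factors, such as Tyrobp, Plcg2, Spi1 and Irf8, and all 16 were highest in microglia in the control library. In microglia 0 of 16 passed at 24 h and 0 of 16 at 3 d, with medians of the log2 ratio of 0.01 and 0.09 beside 0.05 and 0.06 for all genes measured. In pericytes, the class of Il34, 0 of 5 passed at 24 h and 5 of 9 rose at 3 d, where 892 of 7171 genes measured rose, among them Inpp5d at 2.66, Runx1 at 1.49 and Tyrobp at 1.46. In oligodendrocytes, the class highest for Csf1 in the control library, those that passed at 24 h included Tyrobp (0.60) and Runx1 (−0.65), with intervals that both held 0, and 7 of 10 rose at 3 d, where 806 of 9262 genes rose, among them Irf8 at 1.49, Spi1 at 1.27 and Tyrobp at 1.21. Tyrobp and Spi1 are genes of myeloid cells, and the summed microglial markers of these classes had log2 ratios of 0.87 in pericytes and 0.42 in oligodendrocytes at 3 d.

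Of the genes around TGF-beta, those that hold the ligand latent or release it came from many classes. In the control library Nrros, which tethers latent TGF-beta on microglia, was highest in microglia (212 CPM), Ltbp4 and the ligand Tgfb2 in endothelial cells (452 and 262 CPM), Itgb8, a chain of the integrin that releases TGF-beta, in astrocytes (145 CPM) and Lrrc32 in pericytes (71.3 CPM), all chosen after their values were seen. In microglia 0 of 3 of these passed at 24 h and 0 of 4 at 3 d. Among 15 measured genes for other receptors, SMAD proteins and inhibitors, 3 rose and 1 fell past the limit in microglia at 24 h. Of all genes measured there, 12.2% passed. Those of the list included Tgif1 (0.66) and Klf10 (0.65), which rose, and Smad3 (−0.59), which fell, with a median of 0.01 over the list. At 3 d 1 of 15 passed, beside 6.22% of all genes measured. Klf10 encodes an early TGF-beta response factor, Tgif1 a repressor of SMAD transcription and Smad3 a SMAD that carries the signal. Smad3 was at 192 CPM in the control library and 127 CPM at 24 h.

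The 12 genes known to depend on TGF-beta in microglia were all highest in microglia in the control library. At 24 h 0 of 12 rose and 4 fell, where 527 of 10733 genes measured fell, namely Slc2a5 (log2 ratio −0.94, −1.09 to −0.78), P2ry12 (−0.71, −0.75 to −0.67), Olfml3 (−0.70, −0.77 to −0.63) and Siglech (−0.63, −0.69 to −0.57), and the median was −0.42 beside 0.05 for all genes. P2ry12, the purinergic receptor of surveying microglia, was at 2785 CPM in the control library and 1703 CPM at 24 h, and Slc2a5, a fructose transporter, was at 263 and 137 CPM. The cluster led by Cxcl10 and Tnf made up 11.7% of control microglia, 23.4% of those at 24 h and 22.1% of those at 3 d. Within the large cluster 2 of the 12 fell at 24 h, where 486 of 10345 genes measured fell. The 2 were Slc2a5 (−0.71) and Olfml3 (−0.68), while P2ry12 (−0.54) and Siglech (−0.41) did not pass. The median over the 12 was −0.34 beside 0.06 for all genes. Within the cluster led by Cxcl10 and Tnf 5 of the 12 fell at 24 h, where 635 of 5937 genes measured fell. The 5 were Slc2a5 (−1.53), Siglech (−1.24), P2ry12 (−1.08), Adgrg1 (−0.80) and Olfml3 (−0.68), with a median over the 12 of −0.50 beside −0.01 for all genes. At 3 d 0 of 12 passed in either direction in the class or in either cluster, with a median of −0.24 beside 0.06 in the class. Of these 12 genes, 8 are also the markers by which microglia were named, so the class was defined in part by them.

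In the CX3C list, which holds proteases that shed CX3CL1 and partners of its receptor, 0 of 9 passed in microglia at either time. In endothelial cells, where Cx3cl1 was highest, Ctss fell at 24 h (−3.33) and rose at 3 d (0.75), and Itgav rose at 3 d (0.65), so 1 of 7 passed at 24 h and 2 of 7 at 3 d, beside 15.8% and 15.9% of all genes measured. Ctss, a lysosomal protease that was at 2919 CPM in control microglia, was at 76.4 CPM in endothelial cells of the control library, 7.57 CPM at 24 h and 128 CPM at 3 d, in the order of the microglial markers there. The CD200 list held the paralogs of the receptor, the adaptors Dok1 and Dok2 and the signalling proteins Rasa1 and Inpp5d. Of its genes with enough UMIs, 0 of 3 passed in microglia and 0 of 2 in endothelial cells at either time.

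The genes most alike to a member, given for 9 of the 10, were those with the highest Pearson r of log2(CPM + 1) over 18 sums, 6 classes in each of 3 libraries, among 13855 genes. The sums share classes and libraries, so r mostly gives the class pattern. For Csf1r they were Cd300c2 (r = 0.997), Ptprc (0.996) and Ptpn6 (0.994), for Cx3cr1 Laptm5 (0.996), Ptprc (0.994) and Csf1r (0.994), for Tgfbr2 Psmb8 (0.988), Klhl6 (0.985) and Rin3 (0.979), and for Cd200r1 Gm15655 (0.994), Clec5a (0.993) and Ccl6 (0.991). Among ligands, Tgfb1 was closest to Cyba (0.978), Gm12185 (0.978) and Xlr (0.977) and Il34 to Gm13470 (0.988), Saa1 (0.988) and Gm30624 (0.986). Cx3cl1 was closest to Ralgapa1 (0.979), Pgm5 (0.971) and Arl4a (0.964), Cd200 to Stx12 (0.966), Filip1 (0.960) and Egln1 (0.958), and Csf1 to Lrig3 (0.943), Sgk3 (0.928) and Mtmr10 (0.922). Csf1 had the lowest r.

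On the mouse genome (GRCm38, GENCODE release M21) all 10 are protein-coding genes, and places are given for 9 of them. Among ligands, Csf1 (ENSMUSG00000014599) is at chr3:107741048-107760469 on the minus strand, Il34 (ENSMUSG00000031750) at chr8:110741829-110805924 on the minus strand, Tgfb1 (ENSMUSG00000002603) at chr7:25687002-25705077 on the plus strand, Cx3cl1 (ENSMUSG00000031778) at chr8:94772009-94782427 on the plus strand and Cd200 (ENSMUSG00000022661) at chr16:45382135-45409053 on the minus strand. Among receptors, Tgfbr1 (ENSMUSG00000007613) is at chr4:47353222-47414931 on the plus strand, Tgfbr2 (ENSMUSG00000032440) at chr9:116084293-116175360 and Cx3cr1 (ENSMUSG00000052336) at chr9:119901616-120069879, both on the minus strand, and Cd200r1 (ENSMUSG00000022667) at chr16:44765736-44794978 on the plus strand. The genes of the pair Cd200 and Cd200r1 thus lie on the same chromosome.

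Promoters of the RefSeq table (GRCm38.p6), 250 bases before the start of the gene, were found for 7 of the 10 members. They are shown for Csf1, the member called in microglia, and Cd200, the member called at both times in endothelial cells, on the strand of the gene from 5′ to 3′. Capitals mark the kappaB motif GGACTTTCC or its reverse complement and the GC box GGGCGG. Csf1 (chr3:107760470-107760719, minus strand) holds a kappaB motif and 2 GC boxes, and Cd200 (chr16:45409054-45409303, minus strand) holds 1 GC box.
Csf1: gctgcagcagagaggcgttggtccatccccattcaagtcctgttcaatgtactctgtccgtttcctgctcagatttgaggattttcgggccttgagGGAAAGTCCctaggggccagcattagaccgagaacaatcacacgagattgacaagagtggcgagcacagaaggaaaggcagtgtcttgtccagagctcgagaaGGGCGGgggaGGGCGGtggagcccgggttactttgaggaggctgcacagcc
Cd200: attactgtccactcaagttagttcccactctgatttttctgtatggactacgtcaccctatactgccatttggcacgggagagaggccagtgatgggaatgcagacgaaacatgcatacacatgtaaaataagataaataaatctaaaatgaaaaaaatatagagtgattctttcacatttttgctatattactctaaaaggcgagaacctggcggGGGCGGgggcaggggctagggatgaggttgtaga
On either strand kappaB was in 0.283% of the 32851 promoters of the table and in 1 of the 7 members (Csf1), and the GC box in 32.7% and in 5 members (Cd200, Csf1, Cx3cl1, Tgfb1 and Tgfbr1). These 2 motifs were picked for display after the matches and the expression values had been seen, out of 16 motifs searched on both strands. A match is a run of letters and was not tested as a binding site.

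The other 14 motifs were as follows. The TATA box TATAAA was in 12.4% of promoters, AP-1 TGACTCA in 4.46%, the hormone receptor motif AGAACA in 16.1%, the E-box core ACGTG in 16.6%, the forkhead motif TGTTTAC in 3.17% and the SMAD motif CAGA in 93.3%. PU.1 GAGGAAGT was in 2.44%, the ETS core GGAAGT in 19.7%, AGGAAGT in 7.69%, GAGGAAG in 10.6%, AGGAA in 60.3%, ACAGGAA in 7.20%, CCGGAAGT in 2.88% and TTCCGG in 12%, and these forms overlap each other and PU.1. Among the members, TATAAA was in Cx3cl1, AGAACA in Csf1, GGAAGT in Tgfbr1, ACAGGAA in Cx3cr1 and GAGGAAG in Cx3cl1, Tgfbr1 and Tgfbr2. AGGAA was in 6 members (Csf1, Cx3cl1, Cx3cr1, Tgfb1, Tgfbr1 and Tgfbr2) and CAGA in 6 (Cd200, Csf1, Cx3cl1, Cx3cr1, Tgfbr1 and Tgfbr2), and the remaining 7 motifs were in 0.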

How the data were processed

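The values deposited by the authors are counts of unique molecular identifiers per gene and cell, made with Cell Ranger on mm10, with version 7.1.0 in the file headers and 3.1.0 in the submitters' notes. The 10024 cells kept had at least 500 genes and no more than 7% of UMIs from mitochondrial genes. Clusters came from Seurat 5.3.0 in R 4.3.3 (2000 variable genes without the members, 20 components, resolution 0.5) and were named when at least 3 markers of a type were found, with no deposited annotation used. The naming thresholds were set with the clusters known, and the members and lists were chosen with earlier results of these data known. Doublets called by Scrublet (scanpy 1.11.5), 268 cells or 2.67%, were kept, and an alternative left them out. Sums, CPM and intervals were computed in Python 3.11.15 with scipy 1.17.1 and tested on simulated data. A class was compared with at least 50 cells in each library. Named genes were the 10 members, up to 4 genes past the limit per list and direction in microglia and in the class highest for the ligand, and the 3 genes most alike to each member. The classes taken to lack a gene were set after the values were seen. Other settings were tried, 12 at first and 3 more added after seeing the data. Results for some withheld genes are not reported here.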

Additional observations from a re-analysis of the deposited data

Results flagged for a closer look

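The log2 ratio of Cx3cr1 in pericytes was −3.40 at 24 h and 1.42 at 3 d, and that of Tgfbr1 in endothelial cells was −0.85 at 24 h and 0.84 at 3 d. Both were flagged because the called change had opposite signs at the 2 times. The difference between the times was not tested, as each time has 1 library. Without called doublets Cx3cr1 in pericytes was −0.49 at 3 d. Tgfbr1 in endothelial cells passed in 6 of 10 alternatives at each time, with ranges of −1.06 to −0.0969 at 24 h and 0.31 to 1.001 at 3 d.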

How the results depend on the processing

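With 1 library per group, intervals cover counting error only, and no paired analysis was possible because each group has a single library. Il34 in pericytes at 24 h (log2 ratio 1.05 to 1.16), Cd200 in endothelial cells at 24 h (1.24 to 1.57) and 3 d (0.93 to 1.19) and Tgfb1 in pericytes at 24 h (0.59 to 0.85) passed 1.5-fold in 10 of 10 alternatives, Tgfb1 in pericytes at 3 d in 8 of 10 (0.55 to 0.85) and Csf1 in microglia at 24 h in 8 of 11 (0.07 to 0.66). Members past the limit in microglia at 24 h went from 1 to 0 with scaling by the median ratio and to 0 at 2-fold. In the other classes at 3 d they went from 10 to 2 without doublets and 4 at 2-fold, and up to 13 with other linear algebra kernels and 14 with members among the clustered genes. Genes of the pathway lists past the limit in microglia went from 8 to 1 at 2-fold at 24 h, and at 3 d from 2 to 4 with at least 30 UMIs, to 1 at 2-fold and to 4 with the unnamed clusters that hold microglial markers added. The lists held 85 genes, not all with enough UMIs. Of all genes measured in microglia, 12.2% passed 1.5-fold at 24 h and 6.22% at 3 d. Without doublets, signs turned for Csf1r at 3 d in oligodendrocytes (−0.0622) and pericytes (−0.50), Tgfbr2 in astrocytes at 24 h (0.0428) and Cx3cr1 at 3 d in astrocytes (0.14) and pericytes (−0.49). Without regression they turned for Tgfbr2 in astrocytes at 24 h (0.0777) and Cx3cr1 in astrocytes at 3 d (0.12). The cause was not tested. Of 77 ratios, 22 moved beyond their interval without doublets, 24 with the mean of per-cell CPM and 14 without regression, besides those that turned. Leaving out the 5 top cells was run for 25 ratios, and 10 of them moved beyond their interval. Adding the unnamed clusters, leaving out the 5 top cells and other linear algebra kernels were alternatives chosen after seeing the data. Under the other kernels 0 of 77 ratios left their interval, but at 3 d 3 more passed the limit, Csf1r in endothelial cells and Tgfb1 and Cx3cr1 in oligodendrocytes. Cx3cl1 in endothelial cells at 24 h passed with the literal cell filter, resolution 1, members among the clustered genes and no regression. A limit of 1 UMI per cell for the summed markers of the other classes gave no value, since it left each class under 50 cells in a library.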

Other observations

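Other ligands of the niche were looked up with their receptors and chosen for this paragraph after their values were seen. Il33, an alarmin of glial nuclei, was highest in oligodendrocytes, with 688 CPM in the control library, 519 CPM at 24 h and 713 CPM at 3 d, and its receptor Il1rl1 was at 7.26, 10.8 and 9.41 CPM in microglia. Cxcl12, a chemokine of the vessel wall, was at 3016, 1319 and 2363 CPM in endothelial cells and at 206, 90.7 and 133 CPM in pericytes. Gas6, a bridge between dying cells and the receptors Mertk and Axl, was at 104, 157 and 95.2 CPM in endothelial cells. Axl was at 203, 243 and 203 CPM in pericytes and at 2.88, 2.03 and 6.92 CPM in microglia. The microglial values came from 25, 6 and 78 UMIs. In microglia Axl rose at 3 d with a log2 ratio of 1.26 (0.60 to 1.98). It was the 1 gene that passed among 6 measured in its list of receptors, beside 6.22% of all genes measured. Mertk was at 1774, 1725 and 1837 CPM in microglia and at 930, 1442 and 1258 CPM in astrocytes.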
